A study of Homo sapiens with 6 samples.

Results

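The semaphorin system was examined in T98G, a human glioblastoma cell line, from 3 libraries labelled shSLC1A5 and 3 labelled shControl. The shSLC1A5 libraries carry a short hairpin RNA against SLC1A5, a sodium-dependent carrier of neutral amino acids that brings glutamine into the cell, and the shControl libraries carry a control hairpin. All cells were grown in the same serum-containing medium, and poly(A) RNA was sequenced as pairs of 150-base reads. The hairpin sequences, the time after transduction and whether a line was a pool or a clone are not given in the labels. The labels do not state that the 3 libraries of a group are separate cultures, and the p-values then reflect only how much these libraries vary, perhaps for technical reasons. The members were chosen by gene name alone, as protein-coding genes named as semaphorins of classes 3 to 7, plexins, plexin domain containing (PLXDC) proteins or neuropilins. This gave 32 of the 35750 genes listed: 19 semaphorins, 9 plexins, 2 PLXDC genes and 2 neuropilins, and SEMA5B was not analysed here. The family was proposed with results of this same contrast known, so the counts and folds below describe it and support nothing further.

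Semaphorins are secreted or membrane-bound guidance proteins, first known for steering growing axons and later for roles in vessels, immune cells and tumours. Plexins are their receptors, single-pass membrane proteins whose cytoplasmic part acts on small GTPases and so on the cytoskeleton and adhesion. Most secreted class 3 semaphorins need a neuropilin as co-receptor, and neuropilins also bind ligands of the VEGF family. In glioblastoma these genes are studied for invasion, vessel growth and the maintenance of stem-like tumour cells.

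Levels are given as FPKM, the authors' fragment count per length of gene model and library size, which allows levels of different genes to be compared. Tests were run on the 11841 genes whose FPKM averaged 1 or more in the 6 libraries, and 17 of the 32 members passed this minimum. PLXNA2, with a mean of 1.30 FPKM, was the tested member closest to it, and SEMA4D, with 0.954 FPKM, was just outside. The other 15 members are described by their counts further on. A gene was called when its adjusted p (edgeR quasi-likelihood test, Benjamini-Hochberg adjustment over all tested genes) was under 0.05. Fold changes are log2 values of shSLC1A5 over shControl. In bulk RNA, a change in the share of cells with a transcript and a change in RNA per cell cannot be told apart.

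Total counts per library ran from 59327548 to 70802167. SLC1A5 itself was at 87.5, 88.0 and 88.3 FPKM in the shSLC1A5 libraries and at 95.0, 95.3 and 97.1 FPKM in the shControl libraries, a log2 fold change of -0.14 (SE 0.0183, edgeR adjusted p = 1.93e-04). All shSLC1A5 values lay below all shControl values, and with the correction for GC content described next the log2 fold change was -0.34 (adjusted p = 3.96e-07). Of 9 glioma line markers looked up, VIM, CD44, FN1 and SOX9 were above the minimum, while GFAP, S100B, SOX2 and NES were at most 0.206 FPKM in every library and OLIG2 was at 0.680 to 0.788 FPKM in shSLC1A5 libraries and 0.732 to 0.749 FPKM in shControl libraries. Over all tested genes, the fold change was larger where the transcript was richer in GC (Spearman correlation 0.49 across genes, which are not independent replicates). Among the 1565 tested genes with at least 60% GC the median log2 fold change was 0.26, and among the 1912 with under 40% GC it was -0.08. Tested members had a median GC content of 57.4%, against 48.0% over all tested genes, and 12 of the 17 lay above that median. Fold changes after a correction by GC content and transcript length are therefore given for every tested member, and the part of GC content in the results was not tested further.

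The promoter windows of 3 members are shown because these genes, SEMA7A, SEMA4B and PLXNB3, had the largest absolute fold changes among tested members. Each runs from 250 bases before to 50 bases after a RefSeq transcript start (GRCh38.p14), 5′ to 3′ on the gene's strand. Where a gene has several starts, the first in the list was taken, which need not be the most upstream. The SEMA4B window lies inside the span given for the gene below. Capitals mark GGGCGG, the GC box bound by SP1, on either strand (CCGCCC), overlapping copies included. SEMA7A lies at chr15:74433909-74434208 on the minus strand, SEMA4B at chr15:90201080-90201379 on the plus strand and PLXNB3 at chrX:153763999-153764298 on the plus strand.
SEMA7A: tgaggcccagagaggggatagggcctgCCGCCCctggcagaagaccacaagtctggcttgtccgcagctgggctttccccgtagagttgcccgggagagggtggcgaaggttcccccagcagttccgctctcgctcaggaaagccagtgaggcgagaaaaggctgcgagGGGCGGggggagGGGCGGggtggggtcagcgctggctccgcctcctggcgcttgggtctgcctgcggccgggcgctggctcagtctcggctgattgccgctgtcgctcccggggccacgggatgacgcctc
SEMA4B: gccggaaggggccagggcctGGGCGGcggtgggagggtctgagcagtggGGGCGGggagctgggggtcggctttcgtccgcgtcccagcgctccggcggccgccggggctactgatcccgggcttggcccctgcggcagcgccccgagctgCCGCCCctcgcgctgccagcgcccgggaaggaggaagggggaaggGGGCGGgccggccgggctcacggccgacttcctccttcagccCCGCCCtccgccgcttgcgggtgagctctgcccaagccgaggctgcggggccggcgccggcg
PLXNB3: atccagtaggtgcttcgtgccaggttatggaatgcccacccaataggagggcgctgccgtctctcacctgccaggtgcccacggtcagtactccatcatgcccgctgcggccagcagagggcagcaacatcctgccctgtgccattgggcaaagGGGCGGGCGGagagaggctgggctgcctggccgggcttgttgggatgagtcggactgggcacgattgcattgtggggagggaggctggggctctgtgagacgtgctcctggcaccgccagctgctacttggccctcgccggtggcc
The windows are 70.0%, 79.3% and 65.7% GC in the order shown and hold 3, 5 and 2 GC boxes. RefSeq windows, 46 in all, matched 27 of the 32 members, and only the first listed for each gene was used. In all, 8 short motifs were looked up in these windows, and all are given here because the GC box was picked for display after the shares were seen. GGGCGG was in 70.4% of member windows and in 44.6% of the 27305 genes with a window. Member windows were also richer in GC, with a median of 65.7% against 58.3% over all genes. The hypoxia-type core ACGTG was in 22.2% of member windows and 21.6% of all, GCGTG in 22.2% and 36.3%, and the E-box CACGTG in 11.1% and 7.43%. CATTCC was in 7.41% of member windows and 14.0% of all, TGANTCA in 3.70% and 7.76%, TGACTCA in 0% and 4.92%, and ATGATGCAA in 0% and 0.238%. A match is a run of letters and not a site, and the gene that fell (SEMA7A) and those that rose (SEMA4B, PLXNB3) all hold GC boxes.

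Across the tested members, 11 were higher and 3 lower in the shSLC1A5 libraries, and 3 were not called. Over all tested genes, 20.2% were called higher and 19.0% lower, so both calls were common. The median log2 fold change was 0.28 over the tested members and -0.01 over all tested genes. FPKM did not overlap between the groups for 15 of the 17, where 49.6% of tested genes did not overlap. With the GC and length correction, 8 members were higher, 4 lower and 5 not called, where 12.2% of tested genes were called higher and 13.1% lower. The corrected median was 0.12 for the members, against 0.00 for all tested genes. The scaling step of this correction was settled after its results were seen. In an earlier form that kept the first scaling factors, 6 members were higher and 4 lower, where 8.47% of tested genes were called higher and 20.3% lower.

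**Figure D1:**
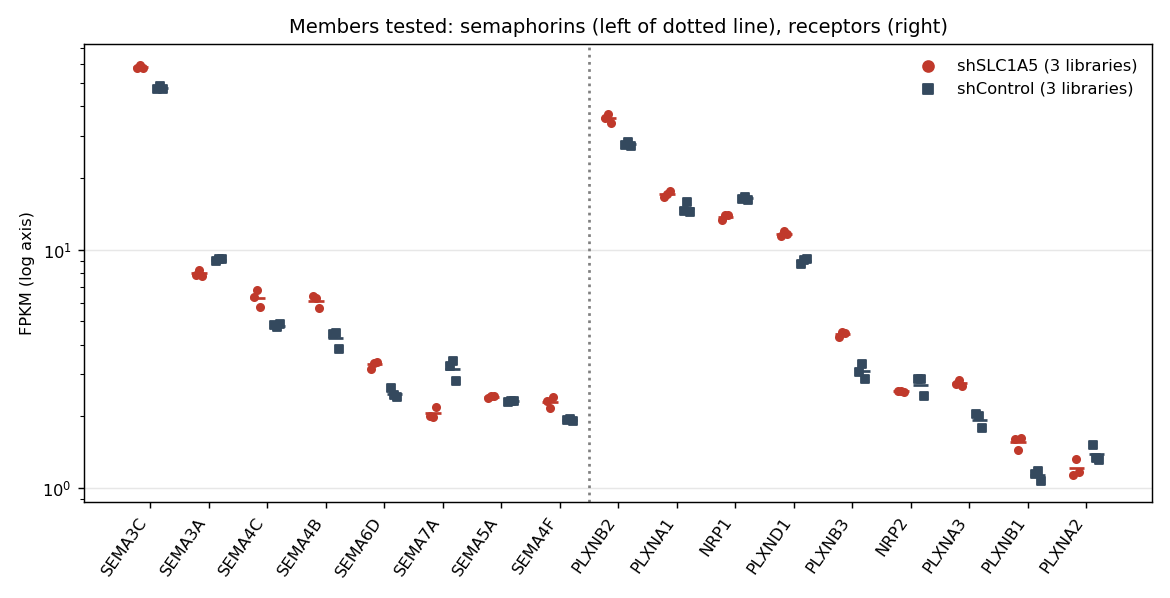
FPKM (log axis) of the 17 tested members in each of the 3 shSLC1A5 libraries (red circles) and 3 shControl libraries (blue squares), with short lines at the group means and semaphorins left of the dotted line. SEMA3C and PLXNB2 stand above the other ligands and receptors, and SEMA7A, SEMA3A and NRP1 are lower in shSLC1A5.

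Secreted class 3 semaphorins moved in opposite directions. SEMA3C (chromosome 7, 80742538 to 80922359, minus strand), a secreted ligand that signals through neuropilins and plexins, had the highest level of any member. It was at 57.8, 59.6 and 57.6 FPKM in shSLC1A5 libraries and at 47.3, 48.5 and 47.0 FPKM in shControl libraries. Every shSLC1A5 value lay above every shControl value, and the log2 fold change was 0.28 (SE 0.0209, edgeR adjusted p = 2.73e-06). Its transcript is only 39.4% GC, and the correction raised the log2 fold change to 0.35. SEMA3C made up 62.5% to 63.0% of the summed semaphorin FPKM in shSLC1A5 libraries and 60.4% to 60.7% in shControl libraries.

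SEMA3A, the classical repulsive axon guidance cue that acts through NRP1 and class A plexins, fell to 7.95 ± 0.255 FPKM in shSLC1A5, against 9.06 ± 0.0985 FPKM in shControl (SD, n = 3 each). The groups did not overlap, and the log2 fold change was -0.20, or -0.13 after correction, called in both fits. The ratio of SEMA3C to SEMA3A FPKM was 7.23 to 7.41 in shSLC1A5 libraries and 5.15 to 5.34 in shControl libraries. The other class 3 genes, SEMA3B, SEMA3D, SEMA3E, SEMA3F and SEMA3G, were below the minimum.

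Of the 6 membrane-bound class 4 semaphorins, the 3 tested members were called higher in shSLC1A5, where 20.2% of tested genes were, and SEMA4A, SEMA4D and SEMA4G were below the minimum. After correction 2 of the 3 were called higher, where 12.2% of tested genes were. SEMA4B (chromosome 15, 90160604 to 90229676, plus strand) was at 6.38, 6.29 and 5.68 FPKM in shSLC1A5 libraries and at 4.42, 4.47 and 3.85 FPKM in shControl libraries. The groups were apart, with a log2 fold change of 0.51 (SE 0.0661, edgeR adjusted p = 1.51e-04), and 0.29 after correction (adjusted p = 0.00559). SEMA4C (chromosome 2, 96859718 to 96870757, minus strand), a ligand of PLXNB2, was at 6.31, 6.76 and 5.75 FPKM in shSLC1A5 libraries and at 4.81, 4.75 and 4.86 FPKM in shControl libraries. Its log2 fold change was 0.37 (SE 0.0574, edgeR adjusted p = 5.26e-04). After correction it was 0.17, just past the threshold (adjusted p = 0.0483), and in the earlier form of the correction it was 0.13 and not called (adjusted p = 0.109). SEMA4F was at 2.30 ± 0.123 FPKM in shSLC1A5 and 1.94 ± 0.0142 FPKM in shControl (SD, n = 3 each). Its log2 fold change of 0.23 had an edgeR adjusted p = 0.0392, and the call was lost after correction (0.17, adjusted p = 0.141) and without any of 5 of the 6 libraries in turn (up to 0.133).

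Classes 5 to 7 had 1 tested member each, and they differed in direction. SEMA6D (chromosome 15, 47184101 to 47774223, plus strand), a transmembrane ligand of PLXNA1, was at 3.17, 3.36 and 3.38 FPKM in shSLC1A5 libraries and at 2.63, 2.45 and 2.40 FPKM in shControl libraries. All shSLC1A5 values were higher, the log2 fold change was 0.39 (SE 0.0590, edgeR adjusted p = 4.22e-04), and with a 43.6% GC transcript it was 0.45 after correction. SEMA7A (chromosome 15, 74409289 to 74433958, minus strand), a semaphorin held in the membrane by a lipid anchor that binds integrins and PLXNC1, was at 2.01, 1.98 and 2.18 FPKM in shSLC1A5 libraries and at 3.26, 3.42 and 2.81 FPKM in shControl libraries. It fell by 0.64 on the log2 scale (SE 0.107, edgeR adjusted p = 8.75e-04), the largest change of a tested member, and the groups did not overlap. Its transcript is 60.5% GC, in the range where the median gene was higher, and the corrected log2 fold change was -0.83. SEMA5A, a transmembrane ligand of PLXNB3 with thrombospondin repeats, was at 2.41 ± 0.0289 FPKM in shSLC1A5 and 2.32 ± 0.0199 FPKM in shControl (SD, n = 3 each). The FPKM groups did not overlap, but the log2 fold change of 0.05 was not called (edgeR adjusted p = 0.450), with a 95% confidence interval of -0.05 to 0.15, and it was 0.11 after correction (adjusted p = 0.123).

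**Figure D2:**
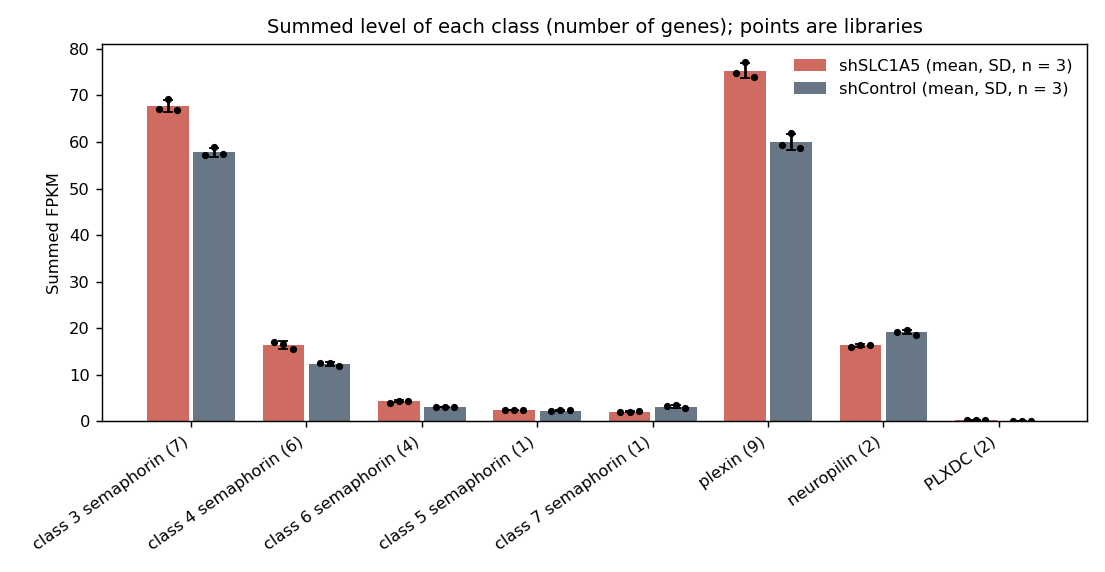
Summed FPKM of each class of semaphorins and receptors, with the number of genes in brackets; bars are means of 3 shSLC1A5 (red) and 3 shControl (grey) libraries, points are libraries and error bars are SD. Class 3, class 4 and class 6 semaphorins and plexins sum higher in shSLC1A5, and neuropilins and the class 7 gene SEMA7A lower.

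Summed over genes, semaphorins came to 92.9 ± 1.63 FPKM in shSLC1A5 and 78.7 ± 1.48 FPKM in shControl (SD, n = 3 each). Class 4 summed to 16.4 ± 0.808 FPKM in shSLC1A5 and 12.3 ± 0.424 FPKM in shControl. Class 6 summed to 4.27 ± 0.222 FPKM in shSLC1A5 and 3.05 ± 0.0635 FPKM in shControl, and PLXDC genes to only 0.264 and 0.107 FPKM in that order. The plexin sum was 75.3 ± 1.65 FPKM in shSLC1A5 and 60.0 ± 1.76 FPKM in shControl, while neuropilins summed to 16.3 ± 0.355 FPKM in shSLC1A5 and 19.2 ± 0.487 FPKM in shControl. SEMA3C led the semaphorin sum, PLXNB2 the plexin sum, NRP1 the neuropilin sum, and SEMA4C and SEMA4B the class 4 sum. The sums are of FPKM without the correction.

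Of the 7 tested plexins, 6 were higher in shSLC1A5, 0 lower, and PLXNA2 was not called, where 20.2% of tested genes were higher and 19.0% lower. After correction, 4 were higher and PLXNA2 lower, where 12.2% of tested genes were higher and 13.1% lower. PLXNB2 (chromosome 22, 50274979 to 50307646, minus strand), a receptor of class 4 semaphorins, was the most abundant plexin. It was at 35.8, 37.0 and 34.1 FPKM in shSLC1A5 libraries and at 27.4, 28.4 and 27.2 FPKM in shControl libraries, without overlap. The log2 fold change was 0.35 (SE 0.0306, edgeR adjusted p = 8.49e-06), and 0.11 after correction (adjusted p = 0.00701). In the earlier form of the correction it was 0.07, just past the threshold (edgeR adjusted p = 0.0496). PLXNB3 (chromosome X, 153764196 to 153779346, plus strand), the receptor of SEMA5A, was at 4.32, 4.52 and 4.47 FPKM in shSLC1A5 libraries and at 3.08, 3.32 and 2.86 FPKM in shControl libraries. Its groups were apart as well, with a log2 fold change of 0.51 (SE 0.0620, edgeR adjusted p = 9.79e-05) and 0.23 after correction (adjusted p = 0.0108). PLXNB1 (chromosome 3, 48403854 to 48430086, minus strand), the receptor of SEMA4D, was at 1.61, 1.44 and 1.62 FPKM in shSLC1A5 libraries and at 1.15, 1.18 and 1.07 FPKM in shControl libraries. The log2 fold change of 0.44 (SE 0.0869, edgeR adjusted p = 0.00246) became 0.22 after correction and was no longer called (adjusted p = 0.0880). The class B plexin transcripts are 62.3% to 65.1% GC.

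PLXND1 (chromosome 3, 129555214 to 129606676, minus strand), the receptor that SEMA3E can bind without a neuropilin, was at 11.4, 12.0 and 11.6 FPKM in shSLC1A5 libraries and at 8.74, 9.09 and 9.12 FPKM in shControl libraries. All shSLC1A5 values were higher, with a log2 fold change of 0.37 (SE 0.0312, edgeR adjusted p = 7.49e-06). After correction it was 0.12 (adjusted p = 0.0220), and in the earlier form of the correction 0.08 and not called (adjusted p = 0.0958). PLXNA3 (chromosome X, 154458281 to 154477779, plus strand), a class A plexin that pairs with neuropilins, was at 2.74, 2.85 and 2.68 FPKM in shSLC1A5 libraries and at 2.04, 2.00 and 1.78 FPKM in shControl libraries. The log2 fold change was 0.49 (SE 0.0624, edgeR adjusted p = 1.33e-04), and 0.38 after correction. PLXNA3 overlaps LAGE3 on the other strand, whose counts equal 19.8% of its own, and since the counting is not stated to use strand its value is uncertain.

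PLXNA1 (chromosome 3, 126988594 to 127037392, plus strand), which transmits SEMA3A and SEMA6D signals, was the second most abundant plexin. It was at 16.7, 17.2 and 17.6 FPKM in shSLC1A5 libraries and at 14.5, 15.8 and 14.4 FPKM in shControl libraries. The groups did not overlap and the log2 fold change was 0.19 (SE 0.0350, edgeR adjusted p = 0.00138), but after correction it was -0.0003 (adjusted p = 0.995; 95% confidence interval -0.06 to 0.06). PLXNA2 was at 1.21 ± 0.106 FPKM in shSLC1A5 and 1.39 ± 0.118 FPKM in shControl (SD, n = 3 each), with overlapping groups. Its log2 fold change of -0.21 was not called (edgeR adjusted p = 0.0669), and at -0.27 after correction it was (adjusted p = 0.0285). With the replicate number added to the corrected fit, PLXNA2 was not called (edgeR adjusted p = 0.0536).

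Of the 2 neuropilins, 1 was called and it was lower, where 19.0% of tested genes were called lower, or 13.1% after correction. NRP1 (chromosome 10, 33177492 to 33336262, minus strand), co-receptor of SEMA3A and of VEGFA, was at 13.3, 14.0 and 14.0 FPKM in shSLC1A5 libraries and at 16.3, 16.7 and 16.2 FPKM in shControl libraries. Every shSLC1A5 value was lower, with a log2 fold change of -0.27 (SE 0.0247, edgeR adjusted p = 1.28e-05), and -0.21 after correction. NRP2, a co-receptor of other class 3 semaphorins and of VEGFC, was at 2.55 ± 0.0201 FPKM in shSLC1A5 and 2.72 ± 0.252 FPKM in shControl (SD, n = 3 each), with overlapping groups. Its log2 fold change of -0.11 was not called (edgeR adjusted p = 0.197; 95% confidence interval -0.25 to 0.03), nor was the corrected value of -0.12 (adjusted p = 0.165). Without shControl replicate 3, the lowest of its group, the value was -0.18 and was called (adjusted p = 0.00665).

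**Figure D3:**
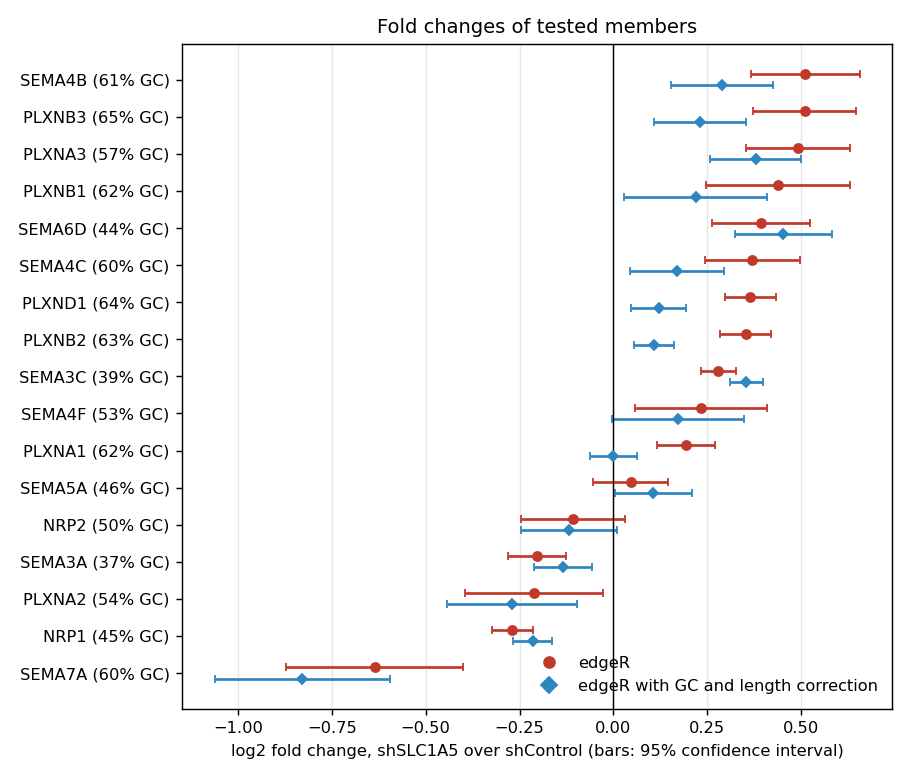
Log2 fold change of shSLC1A5 over shControl for the 17 tested members, with 95% confidence intervals, without (red circles) and with (blue diamonds) correction by GC content and length; the percentage beside each name is the GC content of its transcript. The correction draws the GC-rich plexins towards 0, PLXNA1 to -0.0003, and moves SEMA3C, SEMA6D and SEMA7A away from it.

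**Figure D4:**
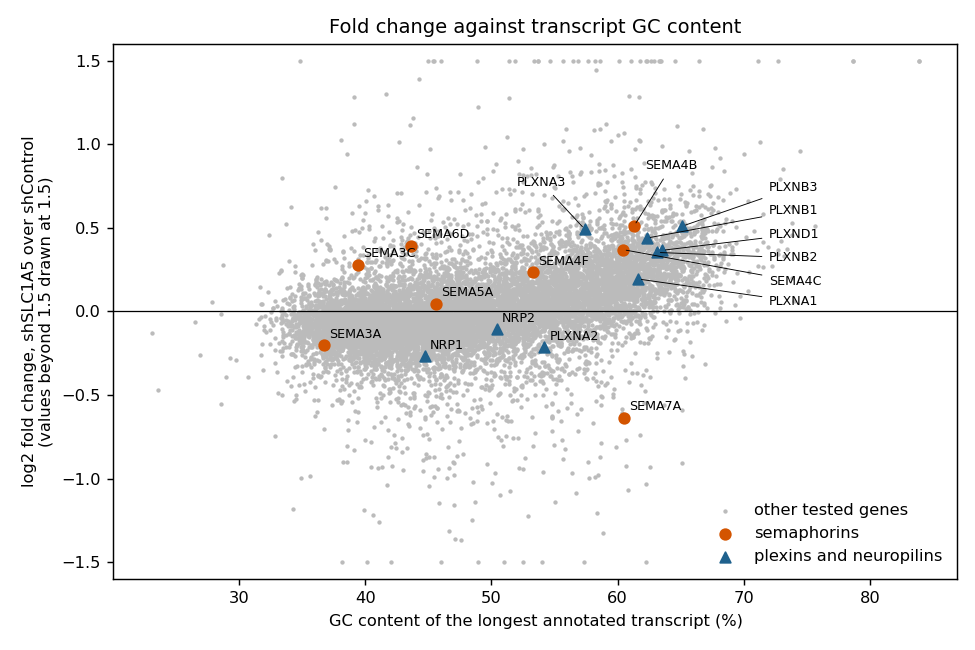
Log2 fold change of shSLC1A5 over shControl (uncorrected) against the GC content of the longest annotated transcript for tested genes (grey), semaphorins (orange circles) and plexins and neuropilins (blue triangles). Most plexins lie in the band of higher values at 60% GC and above, whereas SEMA7A lies far below it.

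The 8 tested members with at least 60% GC had a median log2 fold change of 0.37, against 0.26 over the 1565 genes in that range. SEMA7A was the member of this range that fell. SEMA3C and SEMA6D were higher with transcripts below the median GC content of tested genes, and SEMA3A and NRP1, also below it, were lower.

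The 15 members below the minimum were looked at with edgeR's own filter on counts, filterByExpr, which kept 19527 genes and 31 of the 32 members. Over all 31, 13 were higher and 4 lower, where 12.2% of kept genes were called higher and 11.9% lower. With the GC and length correction as well, 8 were higher and 5 lower, where 6.92% were called higher and 7.88% lower. These 8 include PLXDC2 and SEMA4D, from below the minimum, and leave out PLXND1 and SEMA4C. PLXDC2, a membrane protein with a plexin-like domain, had 295, 190 and 230 counts in shSLC1A5 libraries and 103, 61 and 79 counts in shControl libraries. Its groups were apart and its log2 fold change was 1.38 (SE 0.242, edgeR adjusted p = 0.00210), though its mean level was only 0.168 FPKM. After correction it was 1.46 (adjusted p = 0.00248). PLXNA4, a class A plexin, had 231, 258 and 197 counts in shSLC1A5 libraries and 339, 375 and 308 counts in shControl libraries. It fell by 0.74 on the log2 scale (SE 0.151, edgeR adjusted p = 0.00500), again without overlap, and by 0.78 after correction (adjusted p = 0.00517).

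SEMA4D, the ligand of PLXNB1, had 1461, 1072 and 1119 counts in shSLC1A5 libraries and 837, 774 and 770 counts in shControl libraries. Its log2 fold change was 0.44 (SE 0.105, edgeR adjusted p = 0.0112), or 0.40 after correction (adjusted p = 0.0278). Without shSLC1A5 replicate 1, which held the highest value, it was 0.32 (adjusted p = 0.0491). SEMA6B, a transmembrane ligand of class A plexins, had 186, 236 and 259 counts in shSLC1A5 libraries and 54, 102 and 121 counts in shControl libraries. The filterByExpr log2 fold change of 1.12 (SE 0.298, edgeR adjusted p = 0.0197) was not called after correction (0.75, adjusted p = 0.126) or without shSLC1A5 replicate 2 (adjusted p = 0.0596) or 3 (adjusted p = 0.0705). SEMA3E had 14, 0 and 10 counts in shSLC1A5 libraries and 30, 41 and 34 counts in shControl libraries, and was not called (edgeR adjusted p = 0.0673). SEMA3D, the member that the filter left out, had 18, 0 and 8 counts in shSLC1A5 libraries and 0, 4 and 0 counts in shControl libraries.

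SEMA3B, SEMA3F, SEMA3G, SEMA4A, SEMA4G, SEMA6A, SEMA6C, PLXDC1 and PLXNC1 were kept by the filter and not called, with edgeR adjusted p from 0.203 to 0.954 and overlapping groups. SEMA4A, a class 4 semaphorin known from immune cells, had 71, 13 and 18 counts in shSLC1A5 libraries and 44, 58 and 40 counts in shControl libraries. The log2 fold change was -0.66 (edgeR adjusted p = 0.468), and without shSLC1A5 replicate 1, its highest library, it was -1.74 and called lower (adjusted p = 0.0262). PLXNC1, the receptor of SEMA7A, had 740, 416 and 399 counts in shSLC1A5 libraries and 434, 380 and 504 counts in shControl libraries. A log2 fold change of 0.05 (edgeR adjusted p = 0.900) became -0.26 without that library and was not called there either (adjusted p = 0.343). SEMA3F, SEMA4G, SEMA6A, PLXDC1 and PLXNC1 overlap genes on the other strand whose counts equal at least 15.7% of their own, so their values are uncertain.

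**Figure D5:**
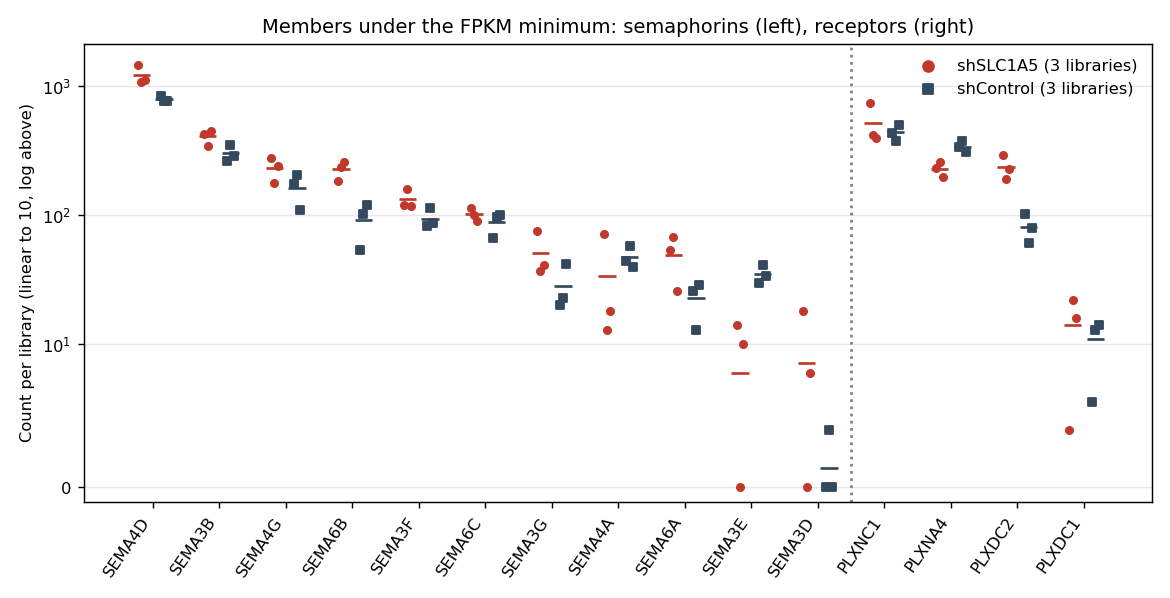
Counts per library (linear to 10, log above) of the 15 members below the FPKM minimum in 3 shSLC1A5 (red circles) and 3 shControl (blue squares) libraries, with lines at the means and semaphorins left of the dotted line. PLXDC2, SEMA4D and SEMA6B are higher and PLXNA4 lower in shSLC1A5 without overlap, and SEMA3D and SEMA3E have few or no counts in several libraries.

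Transcripts of several other cell types were more abundant in shSLC1A5 libraries, and blood and vessel cells are known to express several members. The 6 endothelial markers summed to 1.65 to 1.78 FPKM in shSLC1A5 libraries and 0.664 to 1.05 FPKM in shControl libraries. CDH5 had 118, 100 and 98 counts in shSLC1A5 libraries and 0 in each shControl library, and PECAM1 and VWF were also higher without overlap. ESAM did not differ, at 0.686 FPKM in shSLC1A5 and 0.678 FPKM in shControl, and made up most of the shControl sums. TEK and CLDN5 had few counts and overlapped between the groups. The 5 B cell markers summed to 5.93 to 10.3 FPKM in shSLC1A5 libraries and 0.233 to 0.554 FPKM in shControl libraries, with IGHM and MS4A1 at 0 in all shControl libraries. The 6 neutrophil markers summed to 53.3 FPKM in shSLC1A5 replicate 1, to 0.427 and 0.559 FPKM in the other shSLC1A5 libraries and to 0.114 to 0.277 FPKM in shControl libraries, with MPO at 0 throughout. The 6 myeloid markers summed to 20.4 to 23.4 FPKM in shSLC1A5 libraries and 17.3 to 19.8 FPKM in shControl libraries, most of it CD68. PTPRC had 369, 20 and 19 counts in shSLC1A5 libraries and 0, 0 and 10 in shControl libraries. CD14 had 121, 15 and 21 counts in shSLC1A5 libraries and 14, 19 and 23 in shControl libraries. TYROBP (126 counts) and AIF1 (5 counts) were found in shSLC1A5 replicate 1 alone. CSF1R was at 0.155 FPKM in shSLC1A5 and 0.177 FPKM in shControl. The 3 red cell markers reached 4.71 FPKM in shSLC1A5 replicate 1, all of it from ALAS2, with HBA1 and HBA2 at 0 there. They summed to at most 0.297 FPKM in every other library. The 4 T cell markers summed to 0.14 to 0.288 FPKM in shSLC1A5 libraries and 0 to 0.0567 FPKM in shControl libraries, with CD3E at 0 throughout. TRAC had 23, 14 and 8 counts in shSLC1A5 libraries and 4, 0 and 0 in shControl libraries. CD2 had 4 counts in shSLC1A5 replicate 3 alone, and CD3D had 3 counts in shControl replicate 2 alone. The 5 neuronal markers summed to 3.37 to 4.44 FPKM in shSLC1A5 libraries and 3.72 to 4.18 FPKM in shControl libraries. Of the 32 members, 8 had their highest value in shSLC1A5 replicate 1, 10 in replicate 2 and 6 in replicate 3. In shControl replicates 1, 2 and 3 the numbers were 1, 5 and 2. The same count was not made over all genes, so these numbers have no share to be read against. Those highest in shSLC1A5 replicate 1 were SEMA4B at 6.38 FPKM, SEMA4D at 1.28, PLXNC1 at 0.915, SEMA4G at 0.660 and PLXDC2 at 0.292 FPKM. SEMA3G at 0.186, SEMA4A at 0.128 and SEMA3D at 0.0277 FPKM were also highest in shSLC1A5 replicate 1. For SEMA4A, SEMA4D and PLXNC1 the fold changes without that library are given above, and the part of other cells in the members' values was not tested.

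Genes that act with the family were taken from lists of co-receptors, VEGF ligands of neuropilins, GTPases, effectors, processing proteases and PLXDC partners. Of 70 such genes in the table, 52 were tested, and 21 were higher and 12 lower in shSLC1A5, where 20.2% of tested genes were higher and 19.0% lower. After correction 9 were higher and 14 lower, where 12.2% were higher and 13.1% lower. The lists below are to be read against the same shares, and the genes named in them kept their calls after correction unless stated. Their median log2 fold change was 0.04, or 0.02 after correction, against -0.01 and 0.00 over all tested genes.

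Among 7 tested co-receptors, 3 were higher and 4 lower, and after correction 0 were higher and 4 lower. NRCAM, an adhesion molecule of the SEMA3B and SEMA3F receptor complex, was at 2.10 FPKM in shSLC1A5 and 2.92 FPKM in shControl (log2 fold change -0.49), and MET, a receptor kinase that associates with class B plexins, was at 27.9 FPKM in shSLC1A5 and 33.8 FPKM in shControl (-0.29). ITGA1, the integrin chain that pairs with the beta chain bound by SEMA7A, had a log2 fold change of -0.28. ERBB2, a kinase partner of PLXNB1, had 0.24 and lost its call after correction (0.09, adjusted p = 0.233).

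Of the neuropilin ligands, VEGFA was at 10.8 ± 0.0987 FPKM in shSLC1A5 and 7.88 ± 0.259 FPKM in shControl (SD, n = 3 each), a log2 fold change of 0.44, or 0.37 after correction. VEGFB had 0.36 and lost its call after correction (0.02, adjusted p = 0.814), and VEGFC, at 36.6 FPKM in shSLC1A5 and 41.0 FPKM in shControl, had -0.17. The VEGFA rise and the NRP1 fall thus ran in opposite directions.

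Among 20 tested GTPases and their regulators, 6 were higher and 5 lower, and after correction 2 were higher and 5 lower. The lower genes were not all the same, since RAC1 lost its call after correction and CFL1 gained one (-0.15, edgeR adjusted p = 6.87e-05). RRAS2, a RAS family GTPase, was at 24.8 FPKM in shSLC1A5 and 32.3 FPKM in shControl (log2 fold change -0.40). RND3, a small GTPase of the group that binds plexins, had -0.29. FARP2, an exchange factor downstream of class A plexins, had 0.27, and RRAS, at 0.28, lost its call after correction (adjusted p = 0.759). Of 14 tested cytoplasmic effectors, 7 were higher and 2 lower, and after correction 2 were higher and 3 lower. TLN1 went from called higher at 0.07 to called lower at -0.06 after correction (edgeR adjusted p = 0.0313). DPYSL4, a collapsin response mediator protein, was at 12.8 FPKM in shSLC1A5 and 8.98 FPKM in shControl (0.50, or 0.25 after correction), and MICAL2, an actin-oxidizing enzyme, had -0.32. SH3BP1, a GTPase-activating protein bound to plexins, had 0.50, and GIPC1, an adaptor of neuropilin and plexin tails, had 0.28, and both lost their calls after correction (adjusted p = 0.154 for SH3BP1 and 0.913 for GIPC1).

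FURIN, which cleaves class 3 semaphorins, was the called gene of 6 tested proteases, at 0.31, and lost its call after correction (adjusted p = 0.146). After correction, 2 other proteases were higher and 1 lower: the convertase PCSK7 at 0.13, the sheddase ADAM17 at 0.12 and the membrane metalloprotease MMP14 at -0.16, named here after their values were seen. NID1 and CTTN, binding partners of PLXDC proteins, had log2 fold changes of 0.23 and 0.14, or 0.20 and 0.06 after correction. Other guidance families, the netrins, slits, ephrins, repulsive guidance molecules and their receptors, had 16 tested genes, of which 2 were higher and 2 lower, shares below those over all tested genes, and after correction 1 was higher and 2 lower. EFNB1, an ephrin, was at 6.16 FPKM in shSLC1A5 and 3.87 FPKM in shControl (0.66), and EPHB4, an ephrin receptor, had 0.29, not called after correction (adjusted p = 0.385). RGMB, a repulsive guidance molecule, had -0.36, and SLIT2, a ligand of ROBO receptors, had -0.13, not called after correction (adjusted p = 0.162).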

How the data were processed

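Members, gene lists and tests were chosen with earlier results of these data known. The authors deposited 1 table with counts per gene and, per the file headers, FPKM for the same 6 libraries. The submitters' processing notes name fastp, HISAT2 and StringTie; for build, annotation, counter and strand setting, nothing is given in the sources used here. GENCODE 29 holds 34674 of the listed IDs, and 99.86% of those lie over the matching gene in GRCh38, the build used for coordinates. Columns were matched to samples by group and number in the titles, with 0 left unmapped.

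Counts were tested with edgeR 4.0.16 in R 4.3.3 (TMM scaling, group alone, quasi-likelihood F tests, Benjamini-Hochberg adjustment, threshold 0.05) for genes averaging 1 FPKM or more. The SE is the size of the log2 fold change over the square root of F. FPKM are means ± SD over 3 libraries. Depth was 59327548 to 70802167 counts per library. Libraries of a group differed by 9.84 to 16.7 times counting variance, so none was a duplicate. The biological coefficient of variation was 0.0982.

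For the GC and length correction, loess (span 0.3) was fitted per library to the deviations of scaled log2 CPM on the GC content and log length of each gene's longest transcript in GENCODE 29 (99.7% of tested genes have one). The fit was centred on its median and TMM was run again on the corrected counts. This correction was revised 2 times after its results were seen, because earlier forms counted the scaling 2 times or left the median gene off 0; the closing section gives the values of the form before the last. The steps were also run on simulated counts. That run held only the reported form of the correction, so it gives no ground for choosing between the 3 forms.

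Genes named in full are tested members past the threshold with an absolute log2 fold change of at least 0.3 and the 5 most abundant; up to 4 called genes are named per list. Of the marker genes chosen, 1 is not reported here and 4 others, with no row under their name, were not analysed here. Alternatives were median-of-ratios scaling, DESeq2 1.42.0, limma 3.58.1 on log2(FPKM + 1) and log2(FPKM + 0.1), other filters, a replicate block and leaving out each library.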

Additional observations from a re-analysis of the deposited data

How the results depend on the processing

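In the edgeR fit 4641 genes were called, 2396 higher and 2245 lower. With the GC and length correction 2997 genes were called, 1442 higher and 1555 lower. With filterByExpr added to the correction 2890 were called, and with a replicate block added to it 2842. The form of the correction that kept the first TMM factors, set up before the one reported, called 3402 genes, 1003 higher and 2399 lower, with a median log2 fold change of -0.04. The choice between these forms was made after their results were seen, and it decides the calls of PLXND1 and SEMA4C. Both calls were also lost with filterByExpr added to the reported form (edgeR adjusted p = 0.073 for PLXND1 and 0.0912 for SEMA4C). With the block added to it, SEMA4C was again not called (edgeR adjusted p = 0.0722), and the lower call of PLXNA2 was lost (edgeR adjusted p = 0.0536). Higher members numbered 6 with the first TMM factors kept, 7 with the block and the correction, and 6 with a mean FPKM of at least 5, where fewer members are tested. Lower members numbered 5 with filterByExpr and the correction. Higher pathway genes numbered 9 with the correction, 9 with the block added, 8 with filterByExpr added and 6 with the first TMM factors kept. PLXNA1 reversed to -0.0003 with the correction, -0.0004 with the block added, -0.0230 with filterByExpr added and -0.0403 with the first TMM factors kept. The cause was not tested.

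Leaving out each library in turn gave 3863 to 4081 genes, 10 to 11 higher and 3 to 4 lower members, and 17 to 22 higher and 12 to 13 lower pathway genes. The replicate numbers did not pair the libraries (correlations of same-numbered deviations -0.151, 0.0356 and -0.0343). A replicate block gave 4470 genes, 10 higher and 3 lower members, with SEMA4F the member lost. The fits that join filterByExpr to the correction or to the omission of a library, and the form with the first TMM factors, were added after seeing the data. Members with few counts are limited by depth.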
